A study of Mus musculus with 10 samples.

Results

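Sp1, Sp2, Sp3 and Sp4 encode zinc finger transcription factors of GC-rich promoters, and their transcripts were followed here in mouse embryonic fibroblasts with and without the zinc finger gene Zbtb4. The genes were chosen by name, because they are held to share GC-rich sites with ZBTB4, and each was read from the brightest, by mean over all arrays, of the probe sets annotated with its symbol and no other. Of the 4 genes, 3 had such a probe set (Sp1, Sp3 and Sp4, each with 1), out of 22180 genes measured in this way. Sp2 is not analysed here: its symbol stands on none of the probe sets used. Both groups were fibroblasts of E13.5 embryos, from dorsal skin per the labels, which also describe embryos minced and digested whole once head and organs were removed. The groups were Zbtb4 knock-out (5 arrays) and wild type (5 arrays), with no treatment named for either. The labels give neither the part of Zbtb4 that was removed nor the strain. They number the arrays but do not tie them to different embryos or cultures, and p-values therefore describe the spread among these arrays alone. That spread is not between repeats of the same material throughout, since Y-linked genes ran from low to high within each genotype: Kdm5d ranged from 2.56 to 6.12 on the knock-out and from 2.64 to 6.13 on the wild-type arrays (log2 values), with means that differed by -0.20 (limma adjusted p = 0.984). Whether arrays alike in these genes share an embryo or culture is not given.

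Sp proteins recognise the GC box, a short G-rich element with the core GGGCGG, through a cluster of C2H2 zinc fingers near the C terminus. Sp1 is a widely expressed activator with glutamine-rich domains, Sp3 binds the same sites and is made as long forms that activate and short forms that can repress, and Sp4 is best known from the nervous system. Sp2 differs from the others in how it binds DNA. ZBTB4 is a BTB-domain protein whose zinc fingers recognise methylated CpG, and it has been described as a repressor at Sp-dependent genes in cancer cells. An expression array measures transcripts, so the protein forms of Sp3 are not told apart here.

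The promoters of the Sp genes themselves hold GC boxes, and they are shown because genes are grouped further on by the same element. Each sequence is the 250 bases before a RefSeq transcription start (build GRCm38.p6), written 5′ to 3′ on the gene's own strand, and capitals mark GGGCGG or its reverse complement CCGCCC.
Sp1 (chr15:102406066-102406315, plus strand): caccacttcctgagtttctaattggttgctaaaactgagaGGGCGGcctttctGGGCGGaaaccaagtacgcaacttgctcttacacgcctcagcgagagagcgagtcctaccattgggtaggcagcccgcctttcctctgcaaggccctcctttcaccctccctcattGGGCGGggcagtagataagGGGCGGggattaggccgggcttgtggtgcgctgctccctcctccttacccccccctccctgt
Sp3, first start (chr2:72980447-72980696, minus strand): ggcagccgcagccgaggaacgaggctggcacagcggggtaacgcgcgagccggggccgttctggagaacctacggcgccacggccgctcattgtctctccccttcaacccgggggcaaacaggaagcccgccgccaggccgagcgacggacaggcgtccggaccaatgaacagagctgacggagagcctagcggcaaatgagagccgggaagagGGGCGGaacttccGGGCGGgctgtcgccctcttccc
Sp3, second start (chr2:72979282-72979531, minus strand): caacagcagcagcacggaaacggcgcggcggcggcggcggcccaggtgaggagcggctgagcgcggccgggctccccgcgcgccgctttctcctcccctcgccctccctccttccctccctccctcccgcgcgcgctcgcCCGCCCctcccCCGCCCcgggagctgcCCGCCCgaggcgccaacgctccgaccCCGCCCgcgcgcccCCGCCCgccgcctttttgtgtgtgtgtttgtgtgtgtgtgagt
Sp4 (chr12:118301441-118301690, minus strand): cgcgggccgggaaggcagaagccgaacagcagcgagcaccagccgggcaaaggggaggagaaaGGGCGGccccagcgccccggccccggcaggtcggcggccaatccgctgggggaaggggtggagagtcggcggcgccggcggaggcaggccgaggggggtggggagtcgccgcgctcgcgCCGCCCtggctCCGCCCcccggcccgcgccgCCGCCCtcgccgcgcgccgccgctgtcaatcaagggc
Zbtb4 (chr11:69765662-69765911, plus strand): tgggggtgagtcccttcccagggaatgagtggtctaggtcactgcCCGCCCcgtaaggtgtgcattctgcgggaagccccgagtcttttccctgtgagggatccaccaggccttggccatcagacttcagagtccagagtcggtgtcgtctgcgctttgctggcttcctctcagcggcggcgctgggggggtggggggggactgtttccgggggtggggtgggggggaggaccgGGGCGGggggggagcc

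All 5 genes, Sp2 and Zbtb4 included, had promoter windows in the RefSeq table, which run from 250 bases before a start to 50 bases after it. Matches were counted on both strands and overlapping matches were counted separately. The Sp1 window held 4 GC boxes, all on the gene's strand, the first bases of the outer ones 210 and 62 bases before the start. Sp3 has 2 annotated starts. The window of the first held 2 boxes on the gene's strand, 36 and 23 bases before the start, and the window of the second held 5 boxes on the opposite strand, from 110 to 43 bases before it. The Sp4 window held 5 boxes, 2 on the gene's strand and 3 on the opposite strand, and 1 of those on its own strand lies after the start, outside the printed stretch. Sp2 has 3 annotated starts, and boxes stood in the window of 1 of them, 2 in number. Zbtb4 had 2 boxes. Among all 32851 windows of this length in the table, 35.66% held at least 1 GC box, 10.71% held 3 or more and 5.49% held 4 or more. The windows of Sp1, the second start of Sp3, and Sp4 belong to the last group, and their GC contents were 61.7%, 76.3% and 78.7%, against a median of 52.67% over all windows. A match of letters is a description and not a measured binding site.

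**Figure D1:**
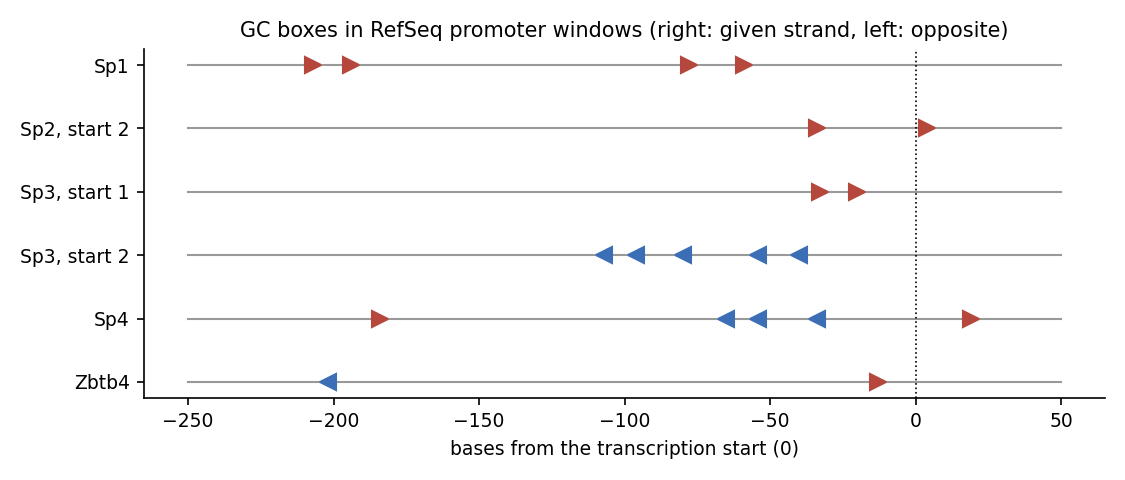
GC boxes in the promoter windows of the Sp genes and Zbtb4, by distance in bases from the transcription start; triangles to the right are matches on the gene's strand and triangles to the left on the opposite strand, and the 2 Sp2 starts without a match are left out. The 5 boxes at the second Sp3 start all lie on the opposite strand, while the 4 boxes of Sp1 all lie on its own.

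The arrays were alike as a whole, with medians from 3.89 to 3.93 on the log2 scale and correlations between arrays from 0.989 to 0.994 across genes, which are not independent replicates. Their number limits the precision: a log2 difference had, at the median gene, a standard error of 0.101. The mean log2 level of 12 fibroblast markers (such as Col1a1, Vim and Pdgfra) was 9.33 to 9.69, while that of 6 keratinocyte markers was 3.18 to 3.48, of 8 neural markers 4.28 to 4.59 and of 8 endothelial markers 3.44 to 3.85. Nothing that marks detection came with the values, so absence of these cells cannot be read from them. The 9 macrophage markers stood at 5.16 on knock-out array 3, where the remaining knock-out arrays had 3.88 to 4.53 and the wild-type arrays 4.12 to 4.43. In bulk samples, fewer cells of a type and less RNA per cell cannot be told apart. Zbtb4 itself was at 5.44, 5.76, 5.04, 5.62 and 5.39 on knock-out arrays 1 to 5 and at 6.06, 6.03, 5.94, 6.23 and 6.11 on wild-type arrays 1 to 5, and the groups did not overlap (exact two-sided permutation p = 0.00794, the smallest that 5 against 5 arrays can give; limma adjusted p = 0.628 over all genes).

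Transcripts of the 3 measured Sp genes did not differ between knock-out and wild-type fibroblasts beyond the spread of the arrays. Sp1 had the lower mean in knock-out cells and Sp3 and Sp4 the higher, by 0.16 log2 units at most, and the 95% intervals reach no further than 1.33-fold in the upper direction and 0.844-fold in the lower. None of the 3 passed a limma adjusted p of 0.05 over all 22180 genes, a threshold that 0.0% of all genes passed. None passed an unadjusted p of 0.05, as 5.98% of all genes did (3.25% higher in the knock-out and 2.73% lower), and in none did the groups of arrays lie apart, as they did for 0.987% of all genes. Levels of different genes come from different probes and are not ranked against each other.

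Sp1, the founding member of the family, was at 5.77, 5.56, 5.45, 5.57 and 5.67 on knock-out arrays 1 to 5 and at 5.77, 5.78, 5.65, 5.501 and 5.62 on wild-type arrays 1 to 5 (log2 expression values). The lowest array was knock-out array 3 and the highest wild-type array 2, and the groups overlapped over most of their range. Knock-out arrays averaged 5.60 ± 0.12 (SD, n = 5) and wild-type arrays 5.66 ± 0.12 (SD, n = 5). They differed by -0.062 on the log2 scale (SE 0.085, 95% interval -0.25 to 0.12), with a limma adjusted p of 0.926, and an exact two-sided permutation p of 0.429. On the linear scale the knock-out signal was 0.958 of the wild type, with an interval from 0.844 to 1.09. Sp1 was also the least variable of the 3, with a range of 0.333 log2 units over all arrays, and 23.5% of genes had a smaller standard error. With single arrays left out the difference ran from -0.10 (without knock-out array 1) to -0.023 (without knock-out array 3).

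Sp3, which competes with Sp1 for the same boxes, varied most. It was at 6.55, 6.55, 6.80, 6.50 and 6.48 on knock-out arrays 1 to 5 and at 6.80, 6.32, 6.39, 6.45 and 6.11 on wild-type arrays 1 to 5. The 4 other wild-type arrays lay below all 5 knock-out arrays, but wild-type array 1 was level with the highest knock-out array, so the groups overlapped. Knock-out arrays averaged 6.57 ± 0.13 (SD, n = 5) and wild-type arrays 6.41 ± 0.25 (SD, n = 5). They differed by 0.16 on the log2 scale (SE 0.12, 95% interval -0.092 to 0.41), with a limma adjusted p of 0.857 and an exact two-sided permutation p of 0.246. The knock-out signal was thus 1.12 times the wild type, with an interval from 0.938 to 1.33. Of all genes, 19.2% had a larger difference in size. Single arrays set the size of this difference: it was 0.25 without wild-type array 1 (unadjusted p = 0.0233, limma adjusted p = 0.869), 0.082 without wild-type array 5 and 0.10 without knock-out array 3. The last is the array with the highest macrophage markers and the highest Sp3 of its group, while wild-type array 1, with the same Sp3 value, had macrophage markers at 4.29. Of the 9 macrophage markers, 8 had a higher mean in the knock-out, with a median log2 difference of 0.20. Their mean level was 5.16 on knock-out array 3 and 3.88 to 4.53 on the remaining knock-out arrays, beside 4.12 to 4.43 on wild-type arrays. The part of these markers in the Sp3 values was not tested.

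Sp4 was at 4.22, 4.42, 4.14, 4.25 and 4.13 on knock-out arrays 1 to 5 and at 4.02, 4.29, 4.32, 4.06 and 4.37 on wild-type arrays 1 to 5. The lowest array of all was wild-type array 1 and the highest knock-out array 2, and the other 4 knock-out arrays lay inside the range of the wild-type arrays. Knock-out arrays averaged 4.23 ± 0.12 (SD, n = 5) and wild-type arrays 4.21 ± 0.16 (SD, n = 5). They differed by 0.018 on the log2 scale (SE 0.093, 95% interval -0.18 to 0.22), with a limma adjusted p of 0.986 and an exact two-sided permutation p of 0.841. The sign of so small a difference was not stable: it was -0.0059 after quantile normalization and from -0.032 to 0.058 with single arrays left out. Of all genes, 87.5% had a larger difference in size.

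**Figure D2:**
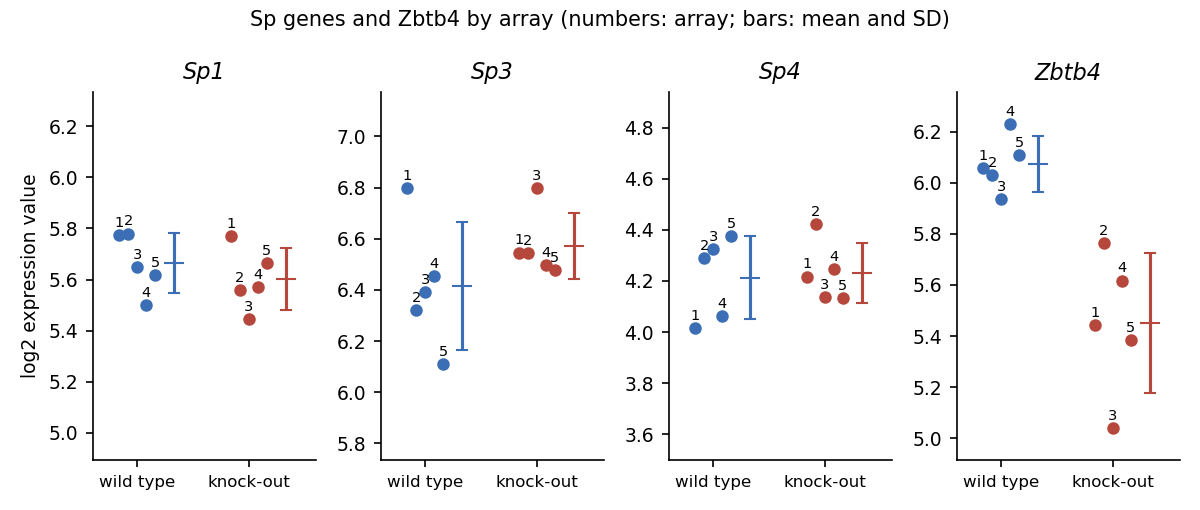
Log2 expression values of Sp1, Sp3, Sp4 and Zbtb4 on each array, with the array number beside each point and the mean and SD of each genotype (n = 5) at its right; every panel spans the same number of log2 units. The genotypes overlap for Sp1, Sp3 and Sp4 and lie apart for Zbtb4.

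**Figure D3:**
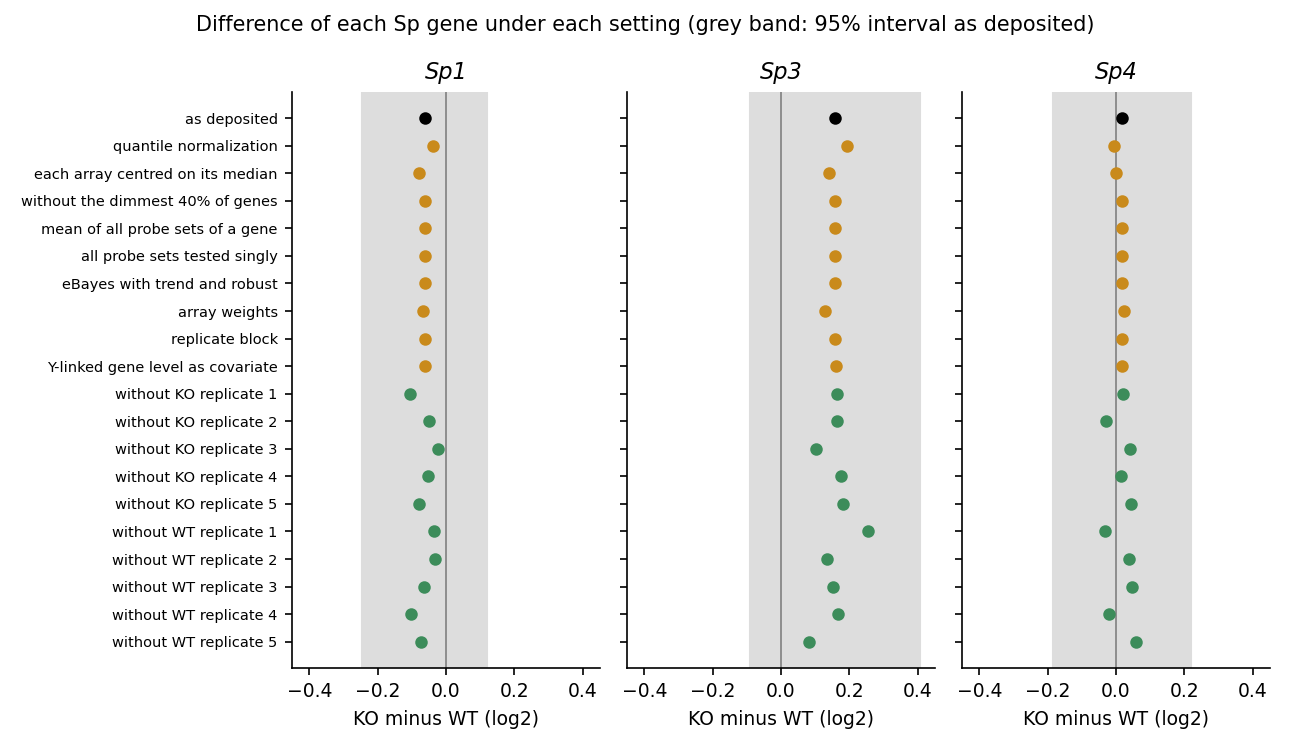
Knock-out minus wild-type log2 difference of each Sp gene with the values as deposited (black), under other processing (orange) and with single arrays left out (green); the grey band is the 95% interval of the deposited values. Every point lies inside the band, Sp1 stays below 0 and Sp3 above it, and Sp4 lies on either side. Several orange points equal the black one by construction.

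The balance of Sp factors was compared within arrays, since the difference between a pair of genes on the same array does not change when that array is scaled. The log2 value of Sp1 minus that of Sp3 was -0.774, -0.986, -1.35, -0.927 and -0.811 on knock-out arrays 1 to 5 and -1.02, -0.54, -0.74, -0.952 and -0.493 on wild-type arrays 1 to 5. The 3 highest values were wild-type and the lowest was knock-out array 3, with the groups overlapping in between. Knock-out arrays averaged -0.97 ± 0.23 (SD, n = 5) and wild-type arrays -0.75 ± 0.24 (SD, n = 5), a shift of -0.22 (SE 0.15, exact two-sided permutation p = 0.183, adjusted over the 3 pairs 0.516). Sp1 minus Sp4 shifted by -0.080 (SE 0.12, exact two-sided permutation p = 0.516, adjusted 0.516) and Sp3 minus Sp4 by 0.14 (SE 0.20, exact two-sided permutation p = 0.484, adjusted 0.516). These shifts carry the probes' own levels in each value, so only the change between genotypes can be read from them. With single arrays left out, the shift of Sp1 against Sp3 ran from -0.29 (without wild-type array 1) to -0.13 (without knock-out array 3). The shift of Sp1 against Sp4 lay between -0.13 (without wild-type array 5) and -0.0032 (without wild-type array 1), and that of Sp3 against Sp4 between 0.024 and 0.29 without the same arrays.

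Across the 10 arrays no pair of the 3 genes had a correlation past the test. Sp3 and Sp4 had the strongest relation, with Pearson r = -0.61 (permutation p = 0.0604, adjusted over 3 pairs 0.181) and Spearman rho = -0.49 (permutation p = 0.154, adjusted 0.462). Without wild-type arrays 1 and 5, which had the highest and the lowest Sp3, r was -0.26. Leaving out the ends of a range can itself weaken r, so this does not show that the relation rested on them. Within genotypes, r was -0.289 over the knock-out and -0.865 over the wild-type arrays. Sp1 and Sp3 had r = -0.13 (permutation p = 0.724, adjusted 0.952) and rho = -0.10 (permutation p = 0.785, adjusted 0.812), and r was 0.42 without knock-out array 3 and wild-type array 2. Sp1 and Sp4 had r = -0.022 (permutation p = 0.952, adjusted 0.952) and rho = -0.091 (permutation p = 0.812, adjusted 0.812), and r was -0.29 without the same pair of arrays. Over the knock-out and the wild-type arrays singly, r was -0.661 and 0.335 for Sp1 and Sp3, and -0.045 and 0.031 for Sp1 and Sp4. Each value within a genotype rests on 5 arrays and was not tested.

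The genes whose values followed each Sp gene most closely were searched among 16976 genes with a proper symbol, by Pearson r over the 10 arrays. A search of this size returns high values by selection alone, so they are given as a description. For Sp1 they were the phosphorylase kinase subunit gene Phka2 (r = 0.961), the imprinted adaptor gene Grb10 (r = 0.933) and the transcription factor gene Sim2 (r = 0.924), and 127 genes had r above 0.8. For Sp3 they were Ppm1d, a phosphatase gene of the DNA damage response (r = 0.965), Zfp329 (r = 0.936) and Ttc25 (r = 0.932), with 30 genes above 0.8. For Sp4 they were Dexi (r = 0.952), Armc7 (r = 0.922) and Kdf1 (r = 0.905), with 51 genes above 0.8. No Sp gene was among another's closest genes.

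Other genes of the Sp and Klf superfamily were compared next, since Klf proteins bind related GC and CACCC elements. Sp5, Sp6, Sp7, Sp8 and Sp9, developmental factors of the same family, were all measured, and 0 of 5 passed in either direction, with a median log2 difference of 0.014 beside 0.0020 over all genes. Sp5, a Wnt-responsive gene, differed by 0.14 and the ectodermal gene Sp6 by 0.11 (limma adjusted p = 0.857 and 0.894). Sp8 and Sp9, which act in limb and brain development, differed by 0.014 and -0.017, and both signs turned in some settings. In both genotypes the means of Sp7, Sp8 and Sp9 lay below the array medians of 3.89 to 3.93. Without a mark of detection, unchanged expression of Sp7, Sp8 and Sp9 cannot be told from absent expression. Of 17 Klf genes, 0 passed over all genes, the mean was higher for 5 and lower for 12, and the median was -0.062. Klf8 differed by 0.25 (unadjusted p = 0.0449, limma adjusted p = 0.830) and was the only one of the 17 under an unadjusted p of 0.05, a share close to the 5.98% of all genes. Klf9, a glucocorticoid-responsive repressor gene, differed by -0.16, Klf11, a TGF-beta-inducible gene, by -0.22 (-0.099 without knock-out array 4) and Klf17 by -0.13 (-0.061 without knock-out array 1), with limma adjusted p-values of 0.841, 0.854 and 0.854. Without knock-out array 2 the Klf median came to -0.12.

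Factors that bind beside or on GC boxes gave a median near that of all genes. Of 15 measured, which include the 3 subunits of the CCAAT-binding factor NF-Y and zinc finger proteins of G-rich DNA, 0 passed, the mean was higher for 7 and lower for 8, and the median log2 difference was -0.0084, and it lay between -0.039 and 0.026 over the alternatives. Maz, a zinc finger protein of G-rich promoters, averaged 6.22 ± 0.0875 (SD, n = 5) over knock-out and 6.39 ± 0.161 (SD, n = 5) over wild-type arrays, a difference of -0.17. The NF-Y subunit gene Nfyb differed by -0.19, the insulator protein gene Ctcf by -0.16 and the Wilms tumour factor gene Wt1 by -0.15, with limma adjusted p-values of 0.839 for Maz, 0.842 for Nfyb and Ctcf and 0.848 for Wt1.

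Partners through which Sp proteins act had mostly lower means in the knock-out, by small amounts that did not pass. Among all genes 50.7% had the higher mean in the knock-out, and 45.5% did among those left without the dimmest 40%. Of 18 coactivator and corepressor genes, 0 passed over all genes, the mean was higher for 3 and lower for 15, and the median log2 difference was -0.068. Hcfc1, a host cell factor that binds Sp1, differed by -0.15, the TFIID subunit gene Taf4, a contact of the glutamine-rich domains, by -0.16, the acetyltransferase gene Ep300 by -0.10 and the Mediator subunit gene Med14 by -0.097 (limma adjusted p = 0.835, 0.835, 0.851 and 0.857). The groups of arrays lay apart for 1 of the 18, beside 0.987% of all genes. It was the histone deacetylase gene Hdac2, named after its values were seen, which averaged 8.96 ± 0.0351 over knock-out and 9.02 ± 0.0369 over wild-type arrays (SD, 5 arrays each; unadjusted p = 0.304, limma adjusted p = 0.886). Of 13 measured genes of enzymes that modify Sp proteins, the mean was higher for 2 and lower for 11, 0 passed, and the median was -0.053. It lay between -0.091 (without knock-out array 1) and -0.033 (without wild-type array 3) when single arrays were left out. The mean level of the 13 genes was 7.52 to 7.73 on knock-out arrays, highest on array 1, and 7.63 to 7.69 on wild-type arrays. The DNA damage kinase gene Atm differed by -0.28 (unadjusted p = 0.0188, limma adjusted p = 0.821), the cyclin gene Ccna2 by -0.26, the phosphatase gene Ppp2ca by -0.13 (-0.051 as the mean of its 3 probe sets) and the O-GlcNAc transferase gene Ogt by -0.13 (-0.068 without knock-out array 5).

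Genes with Sp sites in textbook promoters were mixed. Of 24 targets of growth, metabolism and matrix, the mean was higher for 12 and lower for 12, 0 passed over all genes, and the median log2 difference was -0.00026, between -0.022 and 0.033 over the alternatives. Odc1, the ornithine decarboxylase gene of polyamine synthesis, was at 7.51 to 8.04 on the knock-out arrays and 7.99 to 8.23 on the wild-type arrays, and its difference of -0.38 was the largest in size of this group (unadjusted p = 0.00237, limma adjusted p = 0.804). Cdkn1a, which encodes the cell cycle inhibitor p21 and is a gene that Sp1 activates through GC boxes, was at 11.02 to 11.31 on the knock-out and 10.80 to 11.20 on the wild-type arrays, a difference of 0.23 (unadjusted p = 0.026, limma adjusted p = 0.821). The fatty acid synthase gene Fasn differed by -0.17 and the thymidylate synthase gene Tyms by -0.23, with limma adjusted p-values of 0.839 and 0.841.

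Sp-dependent genes of survival and angiogenesis, described in tumour cells, had the lowest median of the lists. Of 15 measured, the mean was higher for 4 and lower for 11, 0 passed over all genes, and the median log2 difference was -0.11, beside 0.0020 over all genes. Met, the receptor of hepatocyte growth factor, was at 6.10 to 6.29 on the knock-out arrays and 6.14 to 6.84 on the wild-type arrays, a difference of -0.35 (unadjusted p = 0.0149, limma adjusted p = 0.821). Erbb2, a receptor of the epidermal growth factor receptor family, was at 6.77 to 7.18 on the knock-out and 7.21 to 7.31 on the wild-type arrays, so that the groups lay apart (difference -0.25, unadjusted p = 0.0159, limma adjusted p = 0.821). It was the only gene of the list with groups apart, where 0.987% of all genes had them. The growth regulator gene Myc differed by -0.21 and the survivin gene Birc5 by -0.20, with limma adjusted p-values of 0.841 and 0.842. With single arrays left out, the list's median lay between -0.15 and -0.070. Kdr, a member, is also an endothelial marker and differed by -0.19, while the other 7 of the 8 endothelial markers had a higher mean in the knock-out. The median of the 8 was 0.13 and 0 passed over all genes. Groups lay apart for 2 of them, beside 0.987% of all genes: Cdh5, the cadherin of endothelial junctions, differed by 0.61 (unadjusted p = 8.89e-05, limma adjusted p = 0.628) and the adhesion molecule gene Esam by 0.18 (unadjusted p = 0.0383, limma adjusted p = 0.824), both named after their values were seen. Cdh5 averaged 3.56 on knock-out and 2.95 on wild-type arrays, and Esam 3.13 and 2.95. These means lie below the array medians of 3.89 to 3.93. The part of endothelial cells in the list was not tested.

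**Figure D4:**
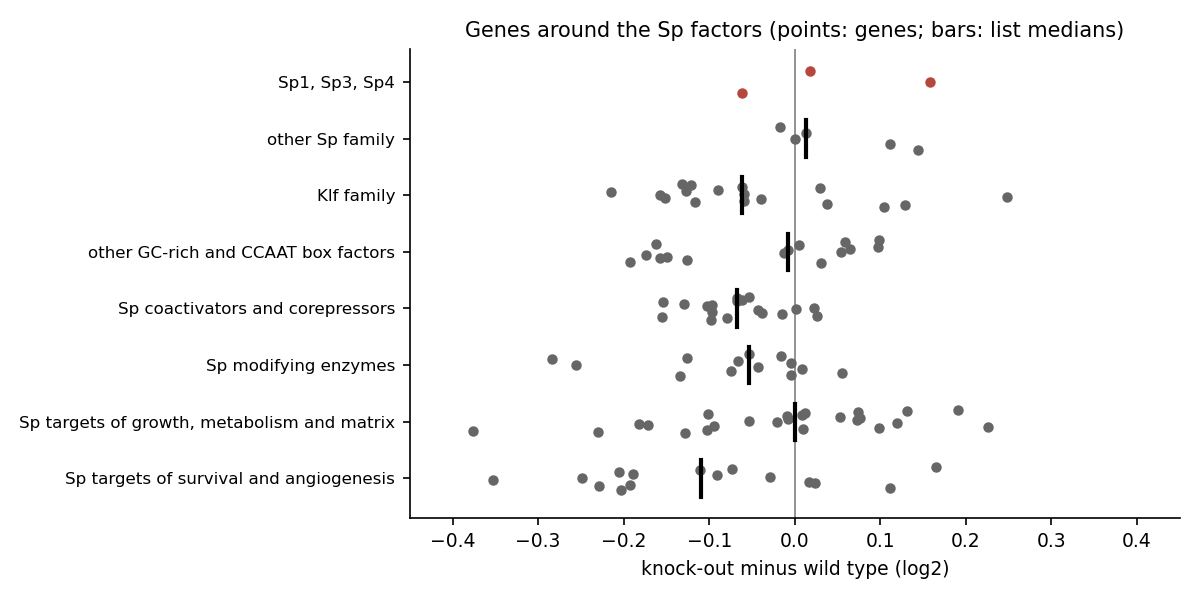
Knock-out minus wild-type log2 differences of Sp1, Sp3 and Sp4 (red) and of the measured genes of 7 lists (grey), each point a gene and each black bar the median of a list. The medians run from -0.11 for targets of survival and angiogenesis to 0.014 for Sp5 to Sp9, and no point passed over all genes.

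Genes were then grouped by the GC boxes in their own promoters, using the same windows as those printed for the Sp genes. Of 18961 protein-coding genes measured, 81.0% had a window, and a gene with several starts was placed by the window with most boxes. Among 7405 genes with 0 boxes, 53.6% had the higher mean in the knock-out and the median log2 difference was 0.010. Among 3190 genes with 1 box, 48.7% had a higher mean and the median was -0.0037. Among 2062 genes with 2 boxes these were 43.7% and -0.017, and among 2701 genes with 3 or more boxes, the class of Sp1, Sp3 and Sp4, they were 44.0% and -0.015. All these genes together had 49.5% higher and a median of -0.0012. The medians of the classes thus lay within 0.03 log2 units of each other, while the middle 50% of genes with 3 or more boxes ran from -0.086 to 0.058.

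The arrays of the genotypes overlapped in every class. For genes with 3 or more boxes, the median deviation of an array from each gene's mean ran from -0.030 to 0.037 on the knock-out arrays and from -0.015 to 0.032 on the wild-type arrays. For genes with 0 boxes it ran from -0.0027 to 0.0066 on the knock-out and from -0.035 to 0.014 on the wild-type arrays. No gene of any class passed over all genes. An unadjusted limma p under 0.05 was seen for 6.12% of genes with 0 boxes, 5.80% with 1, 4.85% with 2 and 5.44% with 3 or more. The share was 5.76% over all classes together and 5.98% over all genes tested, which include genes without a window. The step between classes depended on the normalization: after quantile normalization the medians were 0.0027 for 0 boxes, 0.0027 for 1, -0.0069 for 2 and -0.0040 for 3 or more, and without the dimmest 40% of genes the first and the last were -0.0019 and -0.019. Centring each array on its median gave -0.0074 and -0.032. It shifts the difference of every gene by the same amount, so it cannot change the step. GC content differs between the classes, with a median of 49.7% at 0 boxes and 69.7% at 3 or more. So does expression level, with a median log2 value of 3.36 at 0 boxes and 6.19 at 3 or more. The part of either was not tested.

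**Figure D5:**
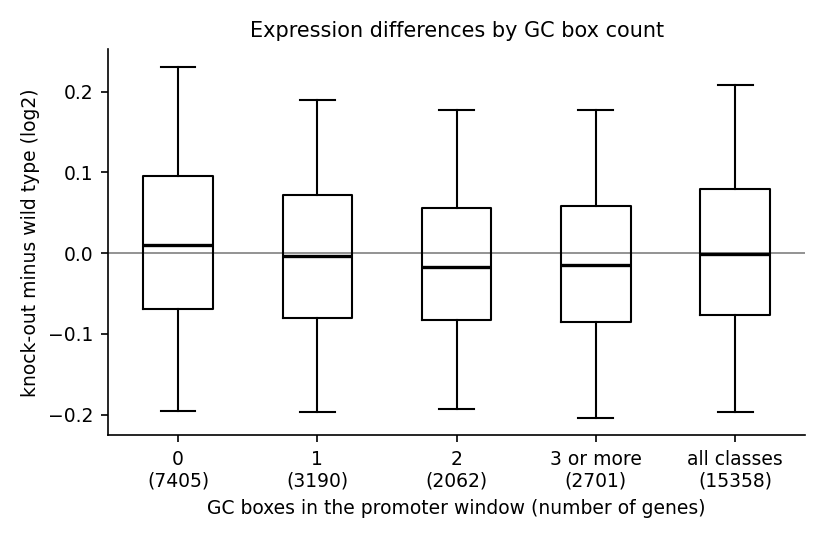
Knock-out minus wild-type log2 differences of protein-coding genes by the number of GC boxes in the promoter window, with the number of genes in brackets; the line is the median, the box the middle 50% and the whiskers the 5th to 95th percentiles. The medians run from -0.017 to 0.010, small beside the boxes.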

How the data were processed

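The values are those of the authors' deposited table, with 41345 probe sets on 10 arrays. Its log2 scale was judged from the range of the deposited values, 0.925 to 13.42. The steps by which probes became these values, normalisation included, are not given in the sources used here. Probe sets with exactly 1 symbol in the platform annotation (23521) were kept, Entrez identifiers were checked against RefSeq, and the probe set with the highest mean stood for each gene. Knock-out minus wild type was fitted by limma 3.58.1 (lmFit, then eBayes; R 4.3.3), without filter or covariate, with Benjamini-Hochberg adjustment over 22180 genes and a threshold of 0.05. Single values were compared by exact two-sided permutation over the 252 ways to choose 5 of 10 arrays, and correlations by 100000 permutations. The limma script was tested on simulated data. Promoter sequences are from RefSeq (GRCm38.p6), matched by gene identifier, and were checked for strand on overlapping windows.

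The members and gene lists were chosen with earlier results of these data known, so lists are described by counts and medians and not tested. The rule for named genes takes the Sp genes, Zbtb4, up to 4 members of each list with the smallest p-values and the 3 genes most like each Sp gene, passing over gene models, small RNAs and receptor genes of smell. Hdac2, Cdh5 and Esam were added because their groups did not overlap, Kdr because 2 lists hold it, and Kdm5d to show how arrays differ within a genotype. Restricting the promoter classes to protein-coding genes was chosen after seeing that 76.28% of all genes had a window. Figures were drawn with matplotlib 3.10.9.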

Additional observations from a re-analysis of the deposited data

Results flagged for a closer look

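Of 84 groups of 5 arrays tested for a single array far from the other 4, 6 stood out, where chance gives about 1 group in 20. Knock-out array 3 was high for Sp3, at 6.80 where the remaining knock-out arrays had 6.48 to 6.55. Wild-type array 5 was low for Ccna2 (8.54 against 8.81 to 8.92), for Ctcf (7.42 against 7.80 to 7.84) and for Odc1 (7.99 against 8.16 to 8.23). Wild-type array 3 was low for Sp6, at 4.45 against 4.83 to 4.92. For the enzymes that modify Sp proteins, the mean deviation of knock-out array 1 was high, at 0.107 where the other 4 knock-out arrays had -0.106 to -0.056. The macrophage markers that also stood high on knock-out array 3 are given with Sp3 in the report.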

How the results depend on the processing

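Under 19 alternatives each, Sp1 kept its lower mean and Sp3 its higher mean. Not all 19 could have moved the difference of a gene with 1 probe set. It is fixed by construction with the replicate block, eBayes with trend, the probe-set mean, single probe sets and the dimmest genes left out. The limma adjusted p-values ran from 0.769 to 0.982 for Sp1, 0.761 to 0.958 for Sp3 and 0.918 to 0.999 for Sp4. Sp4 turned to -0.0059 under quantile normalization and lay between -0.032 and 0.058 without single arrays. Sp8 turned to -0.012 under quantile normalization and -0.0040 with arrays centred on their medians, and lay between -0.055 and 0.067 without single arrays, as Sp9 did between -0.057 and 0.010. The count of genes passing over all genes was 0 to 1 with single arrays left out: without wild-type array 5 it was Thg1l, and it was 0 in the other settings, beside 1326 genes at an unadjusted p under 0.05 as deposited. The median of Sp5 to Sp9 came to 0.128 without the dimmest 40% of genes, where 2 of the 5 were left. The median of the Klf genes lay between -0.123 (without knock-out array 2) and -0.0388 without single arrays. Single arrays brought other differences nearer 0: without knock-out array 4, Birc5 to -0.13, Ccna2 to -0.14, Tyms to -0.12 and Wt1 to -0.089; without wild-type array 3, Sp5 to 0.072 and Sp6 to 0.026; without knock-out array 2, Fasn to -0.11 and Myc to -0.135; and without knock-out array 5, Nfyb to -0.11. Ep300 came to -0.064 without knock-out array 3 and Klf9 to -0.10 without wild-type array 5. The median of genes with 0 GC boxes turned to -0.0074 with arrays centred on their medians; that centring moved the median of all genes from 0.0020 to -0.016.

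With the replicate number as a block, each block holds an array of each genotype, so the differences cannot change. The limma adjusted p-values were 0.933 for Sp1, 0.869 for Sp3 and 0.989 for Sp4, and 0 genes passed. Arrays with the same number in both genotypes had deviations from their genotype means that correlated with r from -0.045 to 0.165 across genes. Arrays with different numbers were not compared in this way, so these values cannot tell whether the numbers pair the samples. The main fit did not use them as pairs. Beside the replicate block, the alternatives included array weights, eBayes with trend, the mean of a gene's probe sets, each probe set singly and Y-linked gene level as covariate. Those that class genes by the window listed first or take all genes with a window were chosen after seeing the data. With 5 arrays a group, differences smaller than the intervals given for each Sp gene could not be shown.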
